A study of Homo sapiens with 4 samples.

Results

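The 38 genes described here encode the core of transforming growth factor beta (TGF-beta) and bone morphogenetic protein (BMP) signaling, namely ligands, receptors, SMAD proteins, latent binding proteins, extracellular antagonists and direct target genes. They were picked by gene symbol, and each symbol matched 1 gene among the 57820 genes of the RNA-seq table. RNA-seq had been performed on SK-N-SH, a human neuroblastoma cell line, in 4 libraries. In 2 of them the cells had received an empty lentivirus without insert (vector control, with wild type as the labelled genotype), and in the other 2 a lentivirus that carried the long noncoding RNA (lncRNA) *RP5-998N21.4* (OE) under the EF1a promoter, as the study's methods state, so that all 4 libraries came from transduced cells. The comparison of OE with vector control asks which transcripts differ once this lncRNA is overexpressed, and the sources used here do not say whether the libraries of a condition came from separate cultures, so that the p-values measure only the spread between these libraries.

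In this pathway a dimeric ligand of the TGF-beta, activin or BMP group brings type II and type I receptor kinases together, and the activated type I receptor phosphorylates receptor-activated SMADs. SMAD2 and SMAD3 mainly serve TGF-beta and activin, SMAD1, SMAD5 and SMAD9 mainly serve BMPs, and both branches use SMAD4 to reach the nucleus. Inhibitory SMADs, decoy receptors and secreted antagonists limit the signal, and in the sympathetic lineage, from which neuroblastoma arises, BMPs are known for inducing noradrenergic neurons.

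Library totals ran from 23785164 to 28307591 counts. The vector control libraries had 32 and 33 counts of *RP5-998N21.4* and the OE libraries 2407 and 2808 (log2 fold change 6.11, SE 0.108, edgeR adjusted p = 0.0109), in the direction of the labels. Expression is given below in counts per 1000000 counts (CPM), scaled for library composition, and differences as log2 fold changes of OE against vector control from edgeR's quasi-likelihood test over 20528 genes. No gene met the study's thresholds (adjusted p under 0.01 and absolute log2 fold change above 0.5) in this test, whereas 4269 genes (20.8%) had an unadjusted p under 0.05 and 1800 genes (8.77%) met the thresholds in DESeq2. Among 14061 genes averaging at least 100 counts, 541 differed more than 4-fold between the OE replicates and 509 between the vector control replicates. Of 8 adrenergic (noradrenergic neuron-like) neuroblastoma markers, 5 of 7 tested were higher in OE at an unadjusted p under 0.05 and none lower, with a summed level of 540.5 and 609.7 CPM in the vector control and 909.2 and 868.5 CPM in OE, and *TH* was at 0 in every library. Of 8 mesenchymal markers, 4 were lower and none higher at that threshold, with sums of 2564 and 2378 CPM in the vector control and 2881 and 1925 CPM in OE, which lay on both sides of the controls. The 8 log2 fold changes ran from -0.75 to 1.22, and 2 of them were positive. Markers of other tissues summed to between 0.598 and 1.49 CPM, with *ALB* and *KRT5* at 0 throughout. The part of these cell state differences in the values below was not tested, and in bulk RNA a smaller number of cells of one state and less RNA per cell cannot be told apart.

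Of the 38 genes, 34 had enough counts to be tested. At an unadjusted p under 0.05, 8 were lower in OE (*SMAD6*, *NOG*, *TGFBR2*, *LTBP2*, *ID4*, *ID1*, *SMAD3* and *BMPR2*) and 1 was higher (*FST*), while 25 did not pass. These 9 genes are 26.5% of those tested, beside 20.8% of all tested genes, and by direction the background was 10.7% lower and 10.1% higher. After adjustment over all genes, none of the 34 had an adjusted p under 0.05 together with an absolute log2 fold change above 0.5, as 122 genes (0.594%) had. In DESeq2, *SMAD6*, *NOG* and *TGFBR2* met the study's thresholds as lower in OE and no other gene of the pathway core did, beside 4.42% of all genes called lower there. The other 6 of the 9 genes had DESeq2 adjusted p between 1.36e-08 (*ID1*) and 0.0101 (*ID4*), with absolute log2 fold changes under 0.5. *BMPR2*, *SMAD3* and *ID4* did not stay past the unadjusted threshold in edgeR when some single libraries were left out, with log2 fold changes in those fits between -0.27 and -0.23, between -0.33 and -0.23 and between -0.42 and -0.33. The median log2 fold change of the 34 genes was -0.18, with a range from -0.93 to 1.14, beside a median of 0.01 over all tested genes. The OE and vector control libraries did not overlap in 26 of the 34 genes, 19 lower and 7 higher in OE, beside 55.4% of all tested genes, 27.6% lower and 27.8% higher.

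**Figure D1:**
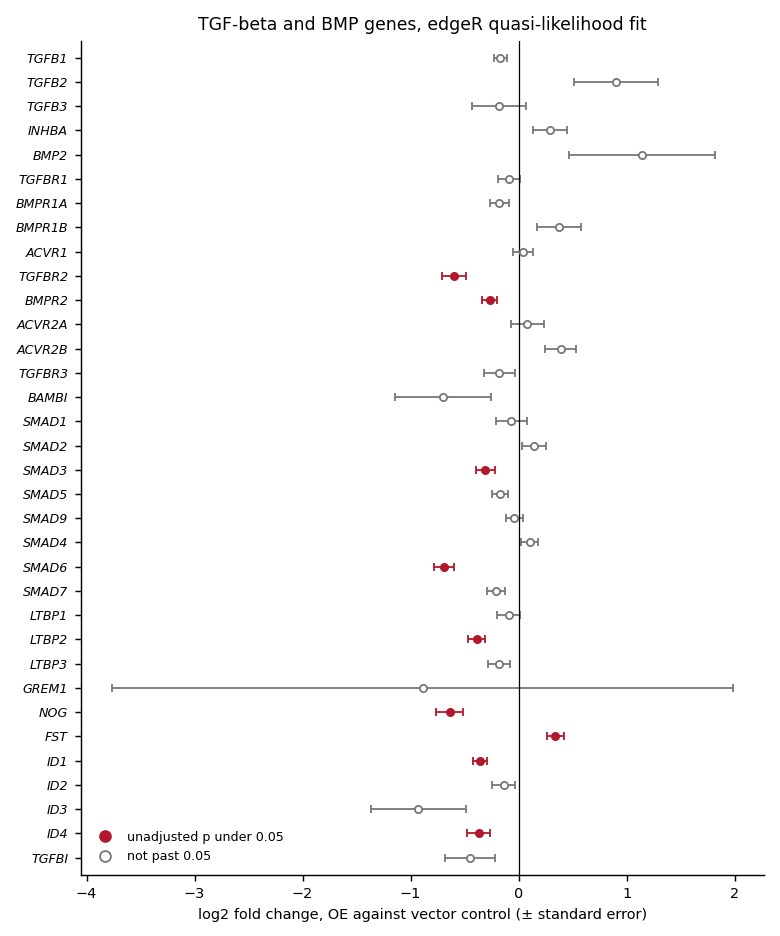
Log2 fold change (x axis, log2 units) of OE against vector control for the 34 tested TGF-beta and BMP genes (y axis), with bars for the standard error derived from the edgeR test. The 9 filled red points have an unadjusted p under 0.05, and of these only *FST*, at 0.34, lies to the right of 0, while *SMAD6*, at -0.69, lies farthest to the left.

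The promoters of genes that passed the unadjusted threshold are shown for reference, since SMAD proteins act on DNA: SMAD3 and SMAD4 bind the letters CAGAC, and SMAD1 and SMAD5 bind the GC-rich letters GGCGCC. The sequences are the 250 bases before the gene start in RefSeq, and each matched GRCh37 (hg19) at exactly 1 place. They are printed 5′ to 3′ on the strand of the gene, with every CAGAC or GGCGCC, searched on both strands, in capitals.
*SMAD6*, chr15:66994324-66994573, plus strand: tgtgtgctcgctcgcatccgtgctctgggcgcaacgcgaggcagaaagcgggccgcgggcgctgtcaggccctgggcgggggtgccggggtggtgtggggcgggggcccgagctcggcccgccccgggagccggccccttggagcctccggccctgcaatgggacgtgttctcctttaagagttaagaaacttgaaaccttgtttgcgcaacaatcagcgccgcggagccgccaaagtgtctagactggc
*TGFBR2*, chr3:30647598-30647847, plus strand: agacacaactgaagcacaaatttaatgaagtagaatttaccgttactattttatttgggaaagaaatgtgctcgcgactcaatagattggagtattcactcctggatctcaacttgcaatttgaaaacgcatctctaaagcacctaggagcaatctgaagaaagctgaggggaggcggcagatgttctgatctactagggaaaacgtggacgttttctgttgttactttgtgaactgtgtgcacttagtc
*BMPR2*, chr2:203240800-203241049, plus strand: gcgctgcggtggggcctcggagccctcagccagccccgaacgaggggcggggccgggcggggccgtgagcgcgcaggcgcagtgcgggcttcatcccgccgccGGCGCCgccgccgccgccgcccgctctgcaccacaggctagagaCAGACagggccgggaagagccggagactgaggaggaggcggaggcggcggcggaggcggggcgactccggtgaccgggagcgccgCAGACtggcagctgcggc
*SMAD3*, chr15:67357690-67357939, plus strand: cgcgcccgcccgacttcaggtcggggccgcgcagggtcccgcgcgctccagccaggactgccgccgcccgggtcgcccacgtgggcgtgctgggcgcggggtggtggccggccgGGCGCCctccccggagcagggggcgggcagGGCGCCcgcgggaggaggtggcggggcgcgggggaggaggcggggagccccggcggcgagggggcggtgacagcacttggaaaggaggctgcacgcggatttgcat
*ID1*, chr20:30192842-30193091, plus strand: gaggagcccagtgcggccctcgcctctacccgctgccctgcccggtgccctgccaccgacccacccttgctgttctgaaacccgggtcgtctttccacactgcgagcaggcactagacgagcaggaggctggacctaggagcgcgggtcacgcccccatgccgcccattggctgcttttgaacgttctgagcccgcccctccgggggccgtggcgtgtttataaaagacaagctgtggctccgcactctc
*ID4*, chr6:19837351-19837600, plus strand: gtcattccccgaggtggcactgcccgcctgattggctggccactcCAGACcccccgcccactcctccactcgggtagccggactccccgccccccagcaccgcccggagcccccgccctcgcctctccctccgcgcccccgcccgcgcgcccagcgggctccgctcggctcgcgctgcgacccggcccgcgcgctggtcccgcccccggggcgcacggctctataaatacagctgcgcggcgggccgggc
*FST*, chr5:52776209-52776458, plus strand: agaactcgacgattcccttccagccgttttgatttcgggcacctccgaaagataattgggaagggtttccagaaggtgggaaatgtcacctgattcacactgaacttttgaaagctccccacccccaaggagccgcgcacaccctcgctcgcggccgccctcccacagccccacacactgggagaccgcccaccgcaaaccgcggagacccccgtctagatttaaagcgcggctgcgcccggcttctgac
In these windows, CAGAC was found in *BMPR2* and *ID4*, beginning 103 and 18 bases before the start in *BMPR2* and 205 bases before it in *ID4*. GGCGCC was found in *BMPR2*, 147 bases before the start, in *SMAD3*, 136 and 106 bases before it (the RefSeq start, which lies inside the longer GENCODE span of *SMAD3* given below), and in *LTBP2* (not printed), 222 bases before it. Neither was found in *SMAD6*, *TGFBR2*, *ID1* or *FST*, and no promoter was searched for *NOG*. The *TGFBR2* window ends at 30647847, before the GENCODE start at 30648093, so that the bases between were not searched. The *LTBP2* window reaches into the GENCODE span of its gene. Of the 35 pathway genes with a promoter sequence, 12 held CAGAC and 11 held GGCGCC, beside 37.8% and 16.1% of 27305 promoters of all genes. A match describes the letters and not a bound site.

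Among the ligands, *TGFB1*, which encodes the main TGF-beta isoform of most cells, had the highest level per transcript length (144 CPM per kb in the vector control). It had 8832 and 9332 vector control counts and 8924 and 9709 OE counts, which on the CPM scale was 379 and 397 against 356 and 336. The OE libraries were both lower, but *TGFB1* did not pass the unadjusted threshold. *INHBA*, whose product forms activin A, had 3018 and 2413 counts in vector control cells and 3797 and 3864 in OE, without overlap in CPM and without passing. The other TGF-beta isoforms were scarce. *TGFB2* had 36 and 72 counts against 102 and 131 in OE, which on the CPM scale did not overlap, and *TGFB3* had 55 and 74 against 66 and 65. The BMP ligands were near or below detection. *BMP2*, the only one tested, had 14 and 4 counts in vector control cells and 22 and 24 in OE. *BMP6* had 5 counts in 1 vector control library and 0 in the other 3 libraries. *BMP4* and *BMP7* had 0 counts in all 4 libraries, which by a limit of 3 counts allows up to 0.129 CPM in the shallowest and 0.104 CPM in the deepest library, for counting error only.

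**Figure D2:**
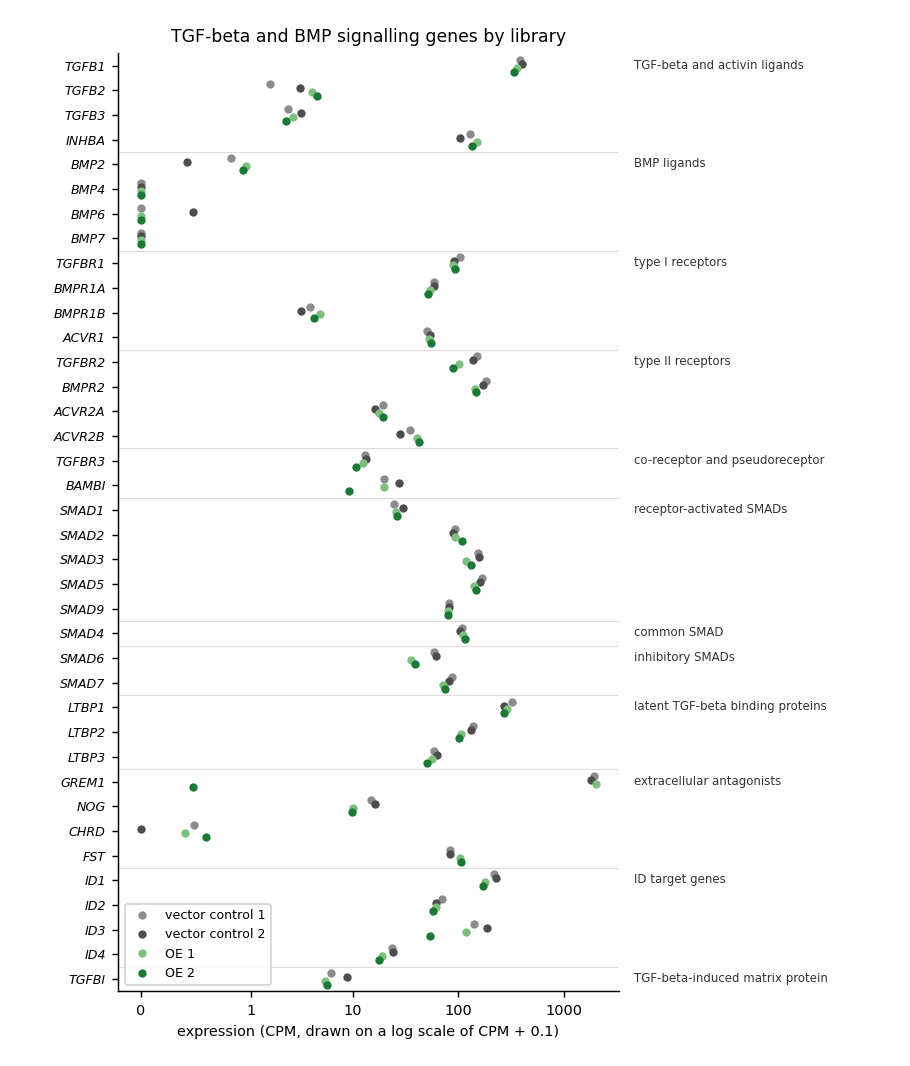
Expression of the 38 TGF-beta and BMP genes in each library, in CPM on a log scale (x axis), with genes grouped by role (y axis) and 1 point per library. *GREM1* lies between 1814 and 2004 CPM in 3 libraries and at 0.207 CPM in OE replicate 2, and the 4 BMP ligands lie below 1 CPM.

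Of the receptors, the type II receptors held the genes that passed. *TGFBR2* (ENSG00000163513, chr3:30648093-30735634, plus strand), the ligand-binding kinase receptor for TGF-beta, had 3506 and 3216 counts in vector control cells and 2534 and 2562 in OE. Its level was 144 ± 9.69 CPM in the vector control and 94.8 ± 8.78 CPM in OE (SD, n = 2), and both OE libraries were below both controls. The log2 fold change was -0.60 (SE 0.110, edgeR adjusted p = 0.111, DESeq2 adjusted p = 8.67e-06). *TGFBR2* also had the highest level per length among type II receptors, at 31.7 CPM per kb. *BMPR2* (ENSG00000204217, chr2:203241050-203432474, plus strand), the type II receptor for BMPs, had 4207 and 4004 counts against 3641 and 4239 in OE. In CPM this was 176 ± 7.26 against 146 ± 1.02 (SD, n = 2), without overlap (log2 fold change -0.27, SE 0.0705, edgeR adjusted p = 0.170). An annotated gene on the same strand shares exon sequence with *BMPR2*, so that its counts are uncertain to that extent.

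The activin type II receptors did not pass. *ACVR2B* had 814 and 660 counts in vector control cells and 1028 and 1213 in OE, higher without overlap in CPM, and *ACVR2A* had 449 and 377 against 447 and 564, with overlap. None of the type I receptors passed either. *ACVR1*, which had the highest level per length among them (17.4 CPM per kb), had 1187 and 1277 counts in vector control cells and 1330 and 1595 in OE, which overlapped in CPM. *TGFBR1*, the type I partner of *TGFBR2* for TGF-beta, was at 104 and 90.9 CPM against 89.7 and 92.7 CPM, which overlapped. *BMPR1A* was at 59.1 and 59.3 CPM against 53.4 and 51.3 CPM, lower in OE without overlap. *BMPR1B* was scarce, with 90 and 74 counts against 122 in each OE library, and higher in OE without overlap in CPM. *TGFBR3*, the co-receptor betaglycan, had 304 and 311 counts in vector control cells and 314 and 309 in OE, while *BAMBI*, a pseudoreceptor that lacks a kinase and blocks signaling, had 464 and 638 against 497 and 264. In CPM both were lower in OE without overlap, with 13.1 and 13.2 against 12.5 and 10.7 for *TGFBR3* and 19.9 and 27.2 against 19.8 and 9.13 for *BAMBI*, and neither passed.

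**Figure D3:**
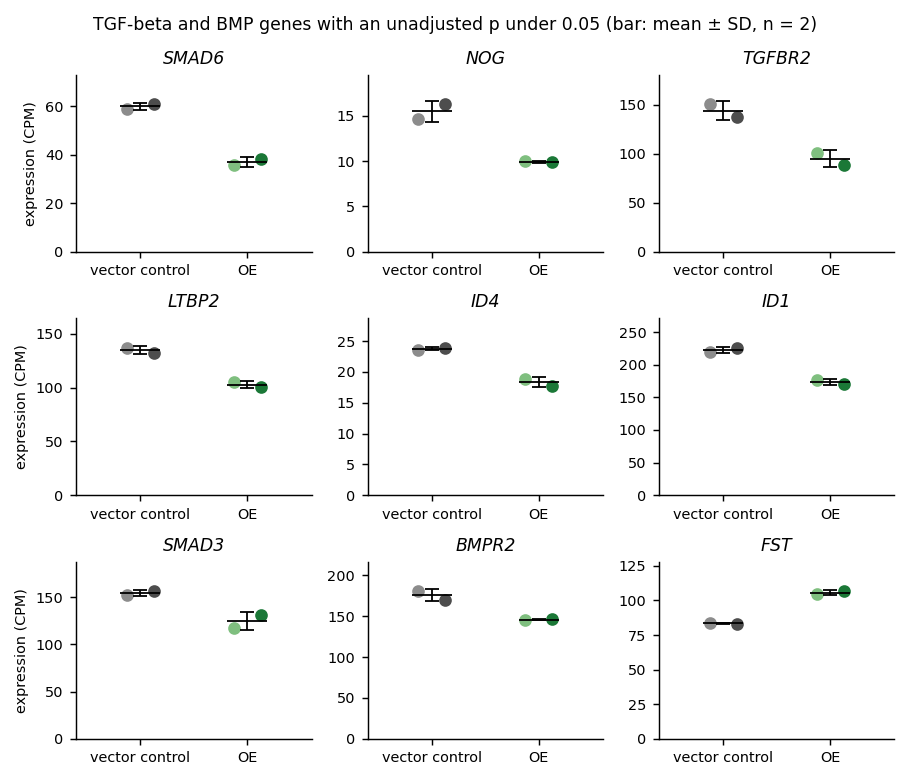
CPM (y axis, from 0) in the 2 vector control and 2 OE libraries for the 9 genes with an unadjusted p under 0.05, 1 panel per gene, with points for libraries and bars for the mean ± SD. In every panel the libraries of the 2 conditions do not overlap, and *FST* is the only gene that is higher in OE (83.4 against 106 CPM).

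Among the SMADs, the inhibitory *SMAD6* (ENSG00000137834, chr15:66994574-67075187, plus strand), which restrains mainly the BMP branch and is itself induced by it, had the smallest p of all 38 genes (unadjusted p = 0.00242). The vector control libraries had 1372 and 1431 counts and the OE libraries 893 and 1112. In CPM it was 58.9 and 60.9 in the vector control and 35.6 and 38.4 in OE, so that the gap between conditions was far wider than the gap within either. The log2 fold change was -0.69 (SE 0.0954, edgeR adjusted p = 0.0810, DESeq2 adjusted p = 4.57e-11). *SMAD7*, the inhibitory SMAD of both branches, which had the higher level per length (25.3 against 15.7 CPM per kb for *SMAD6*), was at 87.1 and 81.7 CPM in the vector control and 72.0 and 73.9 CPM in OE, lower without overlap, but did not pass.

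*SMAD3* (ENSG00000166949, chr15:67356101-67487511, plus strand), a signal transducer for TGF-beta and activin, had 3546 and 3680 counts in vector control cells and 2955 and 3806 in OE. In CPM both OE libraries were lower, with 154 ± 3.06 in the vector control and 125 ± 9.77 in OE (SD, n = 2, log2 fold change -0.31, SE 0.0894, edgeR adjusted p = 0.191). Its partner *SMAD2* was at 92.5 and 88.4 CPM against 92.0 and 108 CPM, with overlap. *SMAD3* had the highest level per length among receptor-activated SMADs with a usable length (24.1 CPM per kb), and an antisense gene overlaps its exons. The BMP-branch *SMAD1* and *SMAD9* were at 24.4 and 30.1 CPM and at 80.7 and 82.4 CPM in the vector control, and at 25.8 and 26.2 CPM and at 79.0 and 79.7 CPM in OE. Of these, *SMAD1* overlapped and *SMAD9* was lower without overlap, and neither passed. *SMAD5* was at 166 and 159 CPM against 140 and 148 CPM, lower without overlap and without passing. The common partner *SMAD4* was at 109 and 103.5 CPM in the vector control and 112 and 115 CPM in OE, higher without overlap, and it did not pass.

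Latent TGF-beta binding proteins hold TGF-beta in the extracellular matrix. *LTBP1* was the highest per length (45.7 CPM per kb), with 7502 and 6399 counts in vector control cells and 7176 and 7866 in OE, which overlapped in CPM. *LTBP2* (ENSG00000119681, chr14:74964886-75079081, minus strand), a matrix protein of the same family that is known not to bind latent TGF-beta, had 3192 and 3104 counts against 2638 and 2905. Its level was 135 ± 3.52 CPM in the vector control and 103 ± 3.32 CPM in OE (SD, n = 2, log2 fold change -0.39, SE 0.0759, edgeR adjusted p = 0.118), without overlap. An antisense gene overlaps its exons, and as the use of strand in counting is not given in the sources used here, reads of the pair cannot be told apart. *LTBP3* was at 58.8 and 62.6 CPM against 56.0 and 50.8 CPM, lower without overlap and without passing.

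The extracellular antagonists went in different directions. *NOG* (ENSG00000183691, chr17:54671060-54672972, plus strand), which encodes the BMP antagonist noggin, had 342 and 383 counts in vector control cells and 250 and 285 in OE. In CPM this was 14.7 and 16.3 against 9.96 and 9.85, both OE libraries being lower (log2 fold change -0.64, SE 0.128, edgeR adjusted p = 0.120, DESeq2 adjusted p = 0.00024). *FST* (ENSG00000134363, chr5:52776456-52782964, plus strand), which encodes follistatin, an antagonist that binds activin, had 1948 and 1954 counts in vector control cells and 2618 and 3088 in OE. Its level was 83.4 ± 0.352 CPM in the vector control and 106 ± 1.71 CPM in OE (SD, n = 2), and it alone of the 34 genes was higher at the unadjusted threshold (log2 fold change 0.34, SE 0.0750, edgeR adjusted p = 0.136). *FST* had the highest level per length in this group among genes with a usable length, at 36.4 CPM per kb. *CHRD*, the gene of the BMP antagonist chordin, was not tested, with 5 and 0 counts in vector control cells and 4 and 9 in OE.

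*GREM1*, the gene of the BMP antagonist gremlin, had the most counts of all 38 genes in 3 of the 4 libraries, and its OE replicates differed widely. The vector control libraries held 44205 and 42616 counts, OE replicate 1 held 50294 and OE replicate 2 held 6, so that no direction can be read (edgeR unadjusted p = 0.774). All of its counts lay on 1 transcript. Within 100 kb of *GREM1*, the neighbors *SCG5* (290, 357, 403 and 435 counts in the order vector control replicates 1 and 2, then OE replicates 1 and 2), the antisense *RP11-758N13.1* (789, 803, 909 and 959) and *FMN1* (8367, 7704, 6029 and 6832) had no such gap. They were looked up after the value of *GREM1* had been seen. Of the 14061 genes averaging at least 100 counts, 271 had 1 library at under 10% of the lowest other library, namely 63 and 69 genes for the vector control replicates, 78 for OE replicate 1 and 61 for OE replicate 2. The cause was not tested.

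The ID genes, which encode inhibitors of helix-loop-helix transcription factors and are direct BMP targets, were lower in OE where they passed. *ID1* (ENSG00000125968, chr20:30193086-30194318, plus strand), the highest per length among the genes with a usable length, at 180 CPM per kb, had 5094 and 5314 counts in vector control cells and 4435 and 4912 in OE. In CPM this was 222 ± 5.23 against 173 ± 4.90 (SD, n = 2, log2 fold change -0.36, SE 0.0654, edgeR adjusted p = 0.110). *ID4* (ENSG00000172201, chr6:19837601-19842428, plus strand) had 549 and 563 counts against 475 and 515, which was 23.8 ± 0.271 CPM against 18.4 ± 0.796 CPM (SD, n = 2, log2 fold change -0.37, SE 0.105, edgeR adjusted p = 0.186). For both genes the OE libraries were below the controls. *ID2* was at 69.4 and 61.7 CPM in the vector control and 60.9 and 58.1 CPM in OE, and *ID3* at 141 and 187 CPM against 118 and 54.1 CPM. Both were lower without overlap and did not pass. *TGFBI*, a matrix protein gene named for its induction by TGF-beta, was scarce, with 144 and 208 counts against 135 and 162.

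Because the table gives counts per transcript, the place of each gene's counts was examined. In all 9 genes that passed, the same transcript held nearly all counts in every library, for example ENST00000288840.5 of *SMAD6* with 1350 and 1412 counts in vector control cells and 872 and 1096 in OE, ENST00000295754.5 of *TGFBR2* with all of its counts, and ENST00000327367.4 of *SMAD3* with 3542 and 3638 against 2908 and 3765. Of the 31 pathway genes averaging at least 100 counts, 25 (80.6%) kept 1 leading transcript in all 4 libraries, beside 81% of all such genes. The other 6 were *ID3*, *BAMBI*, *SMAD4*, *SMAD5*, *LTBP1* and *TGFBI*, which are described after their values were seen. In *ID3*, ENST00000374561.5 had 3279, 4391 and 2952 counts in vector control replicates 1 and 2 and OE replicate 1 and 0 in OE replicate 2, whose 1566 counts were all on ENST00000486541.1. In *BAMBI*, 376 counts of vector control replicate 2 lay on ENST00000375533.3, which had 0 counts elsewhere, and on the other transcript the libraries had 464, 262, 497 and 264 counts. *SMAD4*, *SMAD5* and *LTBP1* changed their leading transcript in 1 library each, in vector control replicate 2, OE replicate 1 and vector control replicate 1, while their gene totals stayed between 2432 and 3334, between 3518 and 4286 and between 6399 and 7866 counts. When the test was restricted to 16434 genes with 1 leading transcript, an alternative added after seeing the data, 11 of 28 pathway genes passed an unadjusted p under 0.05, beside 25.1% of all genes in that test. *SMAD6* was then the only one of the 9 with an edgeR adjusted p under 0.05 (0.0387), as 3.94% of all genes in that test were with an absolute log2 fold change above 0.5, while those of the other 8 were 0.0597 or above.

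**Figure D4:**
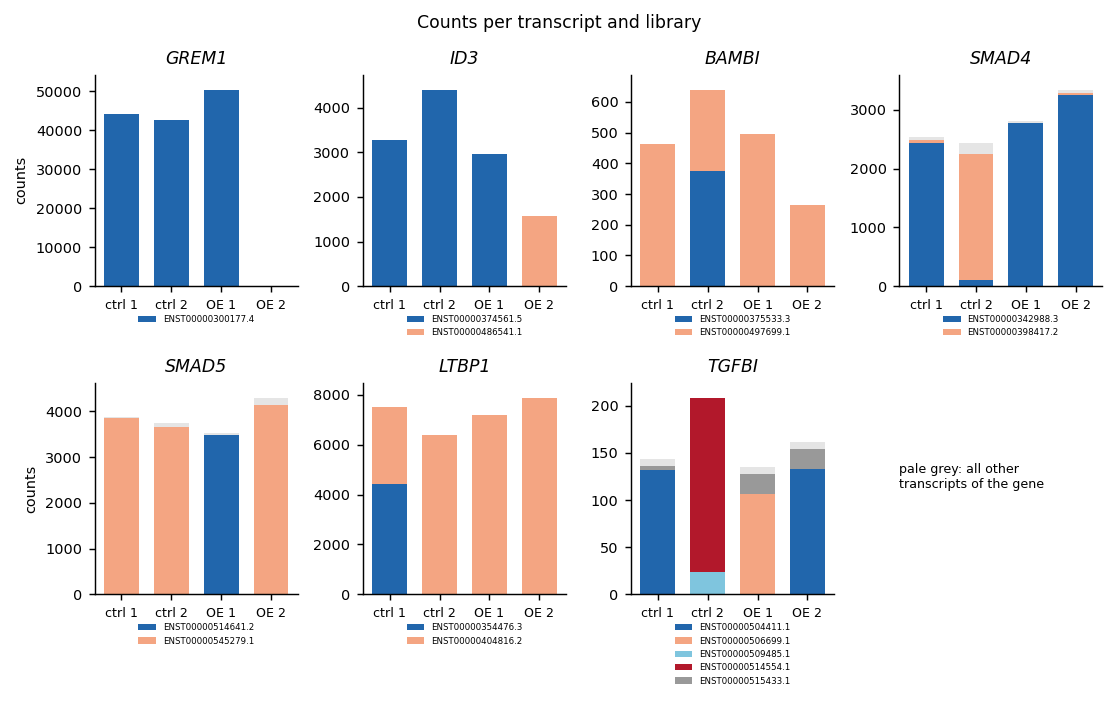
Counts (y axis, from 0) per library for *GREM1* and the 6 genes whose leading transcript changed, stacked by transcript, with transcripts under 10% of the gene's counts in every library in pale grey. *GREM1* has 6 counts in OE replicate 2, and *ID3* has its 1566 counts of that library on another transcript than in the other 3 libraries.

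Beyond these 38 genes, 71 further genes of the pathway were examined, of which 53 were tested. At the unadjusted threshold 7 were higher and 8 lower (28.3%, beside 20.8% of all genes), and their median log2 fold change was -0.04. By the smallest p, they were led by *GDF15*, a distant member of the ligand family, with 1176 and 988 counts in vector control cells and 2906 and 3905 in OE (log2 fold change 1.44, SE 0.150, edgeR adjusted p = 0.0655). The ligand gene *GDF11* was lower (-0.73). Lower, too, were *FURIN* (-0.74), the protease that cleaves ligand precursors, and *THBS1* (-0.85), whose product thrombospondin releases TGF-beta from its latent form. Higher were *DCN* (1.12), a matrix proteoglycan that binds TGF-beta, *ZNF423* (0.89), a SMAD cofactor in the BMP branch, *TGIF1* (0.47), a SMAD corepressor, and *CHRDL1* (1.82), a BMP antagonist with 9 counts in each vector control library and 37 in each OE library. The most abundant in CPM were *FSTL1*, a secreted follistatin-like protein gene (877 ± 2.77 CPM in the vector control and 738 ± 29.6 CPM in OE, log2 fold change -0.25), and *ITGAV*, an integrin subunit that activates TGF-beta (625 ± 47.0 and 587 ± 12.5 CPM, SD, n = 2), which did not pass. Outside this ranking, the BMP ligand gene *BMP8B* had 102 and 66 counts in vector control cells and 201 and 232 in OE. Its log2 fold change was 1.16 (edgeR adjusted p = 0.148).

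Genes known to respond to the pathway were examined as well, 41 in all and 39 tested, in a list chosen, as the marker lists were, with earlier results of these data known. At the unadjusted threshold 7 were higher and 12 lower (48.7%, beside 20.8%). Of 27 TGF-beta response genes, 10 were lower and 2 higher (median log2 fold change -0.17), and of 12 tested BMP response genes, 5 were higher and 2 lower (median 0.59). *TGM2*, the transglutaminase gene, was at 2351 ± 28.9 CPM in the vector control and 1618 ± 13.5 CPM in OE (SD, n = 2, log2 fold change -0.54, edgeR adjusted p = 0.0376), without overlap. *UNC5B*, a netrin receptor gene, had 3245 and 3454 counts against 6831 and 7872 (log2 fold change 0.93, edgeR adjusted p = 0.0445). These were the only 2 of the 39 with an adjusted p under 0.05, and on the highest transcript alone theirs were 0.0546 and 0.0550 in edgeR. Also lower at the unadjusted threshold were *SNAI2* (-0.68), *CTGF* (-0.45) and *SPARC* (-0.41), which serve mesenchymal identity and the matrix. Higher were *HES1* (1.54) and *HEY1* (0.81), transcriptional repressors that are also Notch targets, and *GATA2* (0.37). *GATA2* and *GATA3*, both among the 5 higher BMP response genes, are also adrenergic markers, and *SNAI2* is also a mesenchymal marker, so that these lists are not independent of each other. Among the genes named from both lists, *GDF15*, *TGIF1*, *SNAI2* and *HEY1* did not keep 1 leading transcript in all 4 libraries. On the highest transcript alone, their log2 fold changes were 1.51, 0.67, -0.67 and 0.72, with edgeR adjusted p of 0.887, 0.139, 0.971 and 0.961.

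**Figure D5:**
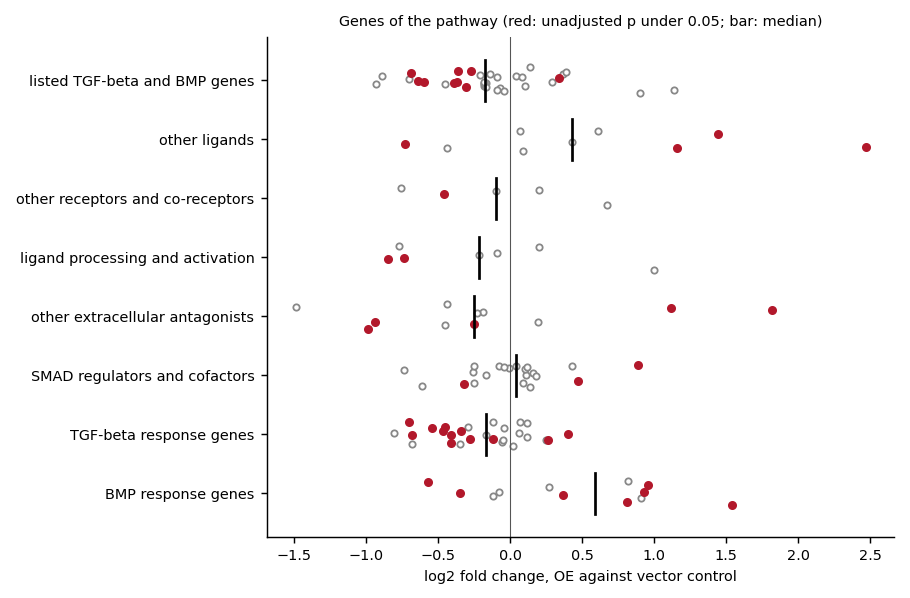
Log2 fold change (x axis) of OE against vector control for the tested TGF-beta and BMP genes, further pathway genes and response genes (rows), 1 point per gene, red where the unadjusted p was under 0.05, with a black bar at each median. The medians lie at -0.18 for the 34 pathway core genes, -0.17 for the TGF-beta response genes and 0.59 for the BMP response genes. The ID genes and *SMAD6*, which BMP signaling also induces, are drawn with the core genes and not with the BMP response genes.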

How the data were processed

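RNA-seq was measured in 2 vector control and 2 OE libraries of SK-N-SH cells, and groups and replicate numbers were taken from the labels. The deposited values are raw counts, whole numbers for each transcript, which the authors had not normalized. The submitters' processing notes name Bowtie2 2.0.4, Picard 2.21.6, StringTie 2.1.6 and DESeq2, with hg19 as the build. The counting tool, annotation release and use of strand are not given in the sources used here. Counts of 196520 transcripts were summed per gene. After filterByExpr and TMM normalization, genes entered the quasi-likelihood test of edgeR 4.0.16 (R 4.3.3), 2 libraries against 2, without covariates, with Benjamini-Hochberg adjustment. This test was checked on simulated counts. The paper's methods name DESeq2, which was run as an alternative (version 1.42.0), as were limma-voom (limma 3.58.1), other normalizations and filters, a replicate block, each library left out and the highest transcript alone. Exact permutation of 2 against 2 libraries cannot give a two-sided p below 0.333 and was not used. The normalized CPM use TMM-scaled totals. Each SE is the absolute log2 fold change divided by the square root of edgeR's F statistic, as the test itself gives none. Limits for counts of 0 reflect only counting error, as reads had no molecular identifiers. Per-length levels use transcript lengths and were left out where under 80% of counts had one (*GREM1* and *SMAD5*). Gene positions come from GENCODE 44 lifted to GRCh37 and promoters from RefSeq (35 of 38 genes). Genes with an unadjusted p under 0.05 were given in full, the others by their levels, in each role the gene with the highest level per length, and from the 2 further lists the 8 genes with the smallest p and the 2 most abundant, except that a gene this rule names is not reported here. *BMP8B* was named outside this rule. The genes and lists were chosen with earlier results of these data known.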

Additional observations from a re-analysis of the deposited data

How the results depend on the processing

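The 9 genes past the unadjusted threshold kept their direction under each alternative run. With the replicate number as a block, 6 remained past it (*BMPR2*, *SMAD3* and *ID4* did not), and over all genes 3060 (14.9%) passed. Deviations of same-numbered libraries correlated at -0.02, over 2 pairs, which are too few to tell whether the numbers pair the libraries. Leaving out 1 library gave between 7 and 10 of the 34 genes, beside 14.9% to 16.8% of all genes, with *SMAD6*, *NOG*, *TGFBR2*, *LTBP2*, *ID1* and *FST* past the threshold each time. In these fits 1 condition has a single library, which is assumed to vary like the other condition's 2. *ID4* was lost without any 1 library, *BMPR2* without vector control replicate 1, OE replicate 1 or OE replicate 2, and *SMAD3* without vector control replicate 1 or 2 or OE replicate 1. Outside these 9, the genes that passed with a library left out were *INHBA*, *BMP2*, *ACVR2B* and *TGFBI* (without vector control replicate 1), *TGFB2* (without vector control replicate 2) and *BAMBI*, *GREM1* and *ID3* (without OE replicate 1). The median of the 34 genes ranged from -0.20 (without OE replicate 1) to -0.11 (without OE replicate 2, the library with 6 *GREM1* counts). DESeq2 gave 15 of the 34 genes at an unadjusted p under 0.05, beside 28.9% of all genes in that test. At the study's thresholds over all genes, where edgeR gave 0 calls, DESeq2 gave 1800, edgeR without a filter beyond 1 count in total gave 9, the highest transcript alone 1, genes with 1 leading transcript (added after seeing the data) 33, and an adjusted p under 0.05 gave 122. With 2 libraries per condition, the adjusted p of *SMAD6* ran from 4.57e-11 in DESeq2 to 0.296 with the block, under which *TGM2* and *UNC5B* also had 0.296. Replicates lay within 1.5-fold in both conditions for 29 of the 34 genes. *BMP4*, *BMP6*, *BMP7* and *CHRD* were too scarce to be tested, and *BMP2* was tested on 24 counts or fewer per library.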
